A study of Rattus norvegicus with 12 samples.

Results

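The genes of the brain renin-angiotensin system were examined in the striatum of 12 male Sprague–Dawley rats. The 9 genes were taken by symbol: *Agt*, *Ace*, *Agtr1a*, *Agtr1b*, *Agtr2*, *Enpep*, *Lnpep*, *Atp6ap2* and *Mas1*. All 9 were among the 17337 genes of the count table. The renin-angiotensin system makes peptide hormones by cutting one precursor, angiotensinogen, in steps. Angiotensin I is released first, angiotensin-converting enzyme turns it into angiotensin II, and aminopeptidases shorten that peptide further. Angiotensin II acts through the AT1 and AT2 receptors. The brain makes components of this system locally, with angiotensinogen known mainly from astrocytes and converting enzyme from the projection neurons of the striatum.

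RNA was sequenced as poly-A libraries, 1 per rat, with 4 rats in each of 3 groups. All were wild-type rats that had self-administered methamphetamine (MA) for 16 days. The MA12 rats were taken 12 h after the last session and the MA24 rats 24 h after it. The remaining 4 rats are labelled non-addicted after the same 16 days, with no abstinence time, and the study's text does not say how they were defined. According to the study's methods, only food-trained rats that pressed a lever steadily went on to sequencing, so the MA12 and MA24 rats were a selected set. Rats given saline were not analysed here. Rat numbers ended in N for all 4 MA24 rats, for 2 of the 4 MA12 rats and for no non-addicted rat. What N stands for is not given in the sources used here, so for non-addicted vs. MA24 the kind of rat number and the group cannot be told apart.

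Total counts lay between 17908962 and 23850284 per rat. Rats of the same group differed by more than counting noise, with a chi-square per degree of freedom of 9.72 to 28.0, so each rat was used as 1 replicate. Markers of striatal projection neurons were plentiful in every rat, with 7182 to 11975 counts of the dopamine receptor *Drd1* and 41286 to 63052 of *Penk*. Of 7 hypothalamic markers, *Pmch* had 0 counts in all 12 rats. The others were counted, such as *Avp* with 2 to 181 and *Trh* with 177 to 271 counts. This list summed to 14.1 to 17.5 CPM in MA12, 15.8 to 21.0 in MA24 and 15.8 to 26.4 in the non-addicted rats. The 4 thalamic markers were uneven, with 33.9 to 62.7 CPM in MA12, 28.9 to 33.3 in MA24 and 27.6 to 73.4 in the non-addicted rats. Non-addicted rat 11 had the highest sum of both lists. MA12 rats 21 and 31 came next in the thalamic sum, at 62.7 and 55.6 CPM. The part of neighbouring tissue in the values below was not tested. Levels below are log2 CPM (counts scaled to a common library total) after TMM scaling, a correction for library composition, with a prior count of 2. They are compared between rats and not between genes, since no transcript length entered them. Groups were compared with edgeR's quasi-likelihood test, with p-values adjusted by Benjamini-Hochberg over all genes that had a mean count above 4. Genes were called DEGs at an adjusted p below 0.05 if their fold change (FC) reached 1.5 in either direction. The 3 comparisons share groups and are not independent of each other. All 3 thalamic markers tested in MA24 vs. MA12 had a log2FC below 0. Of these, *Prkcd* was a DEG (log2FC -0.95, adjusted p = 0.0360, edgeR), as were 1.54% of all genes, though its levels in the compared groups overlapped.

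None of the renin-angiotensin genes was a DEG in any comparison by this test. In MA24 vs. MA12, 6 of the 9 were tested and 0 were DEGs (edgeR), where 195 of 12652 genes tested were DEGs (1.54%). *Lnpep*, which was lower in MA24, was the only member with an unadjusted p below 0.05, a limit that 22.9% of all genes passed (12.2% of all genes passed it as lower). For non-addicted vs. MA12, 0 of 6 members were DEGs (edgeR), against 5 of 12657 genes (0.0395%). *Enpep*, lower in the non-addicted rats, alone had an unadjusted p below 0.05, as did 12% of all genes (6.73% as lower). In non-addicted vs. MA24, 0 of 6 members and 0 of 12640 genes (0%) were DEGs by this edgeR test, although 2229 genes (17.6%) had an unadjusted p below 0.05 and DESeq2 called 151. Here *Agt*, lower in the non-addicted rats, was the member with an unadjusted p below 0.05 (8.12% of all genes as lower). Levels of the compared groups did not overlap for 1 of 6 members in MA24 vs. MA12 (14.4% of all genes) and for 0 of 6 in non-addicted vs. MA12 (6.65%) and non-addicted vs. MA24 (9.39%). The median log2FC of the 6 members was -0.11, -0.22 and 0.02 in the 3 comparisons in this order, while that of all genes was 0.00, -0.01 and 0.00. The count of DEGs in MA24 vs. MA12 depended on single rats, with 0 when MA12 rat 21 was left out and 2 when MA24 rat 16N was left out (edgeR, same thresholds).

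**Figure D1:**
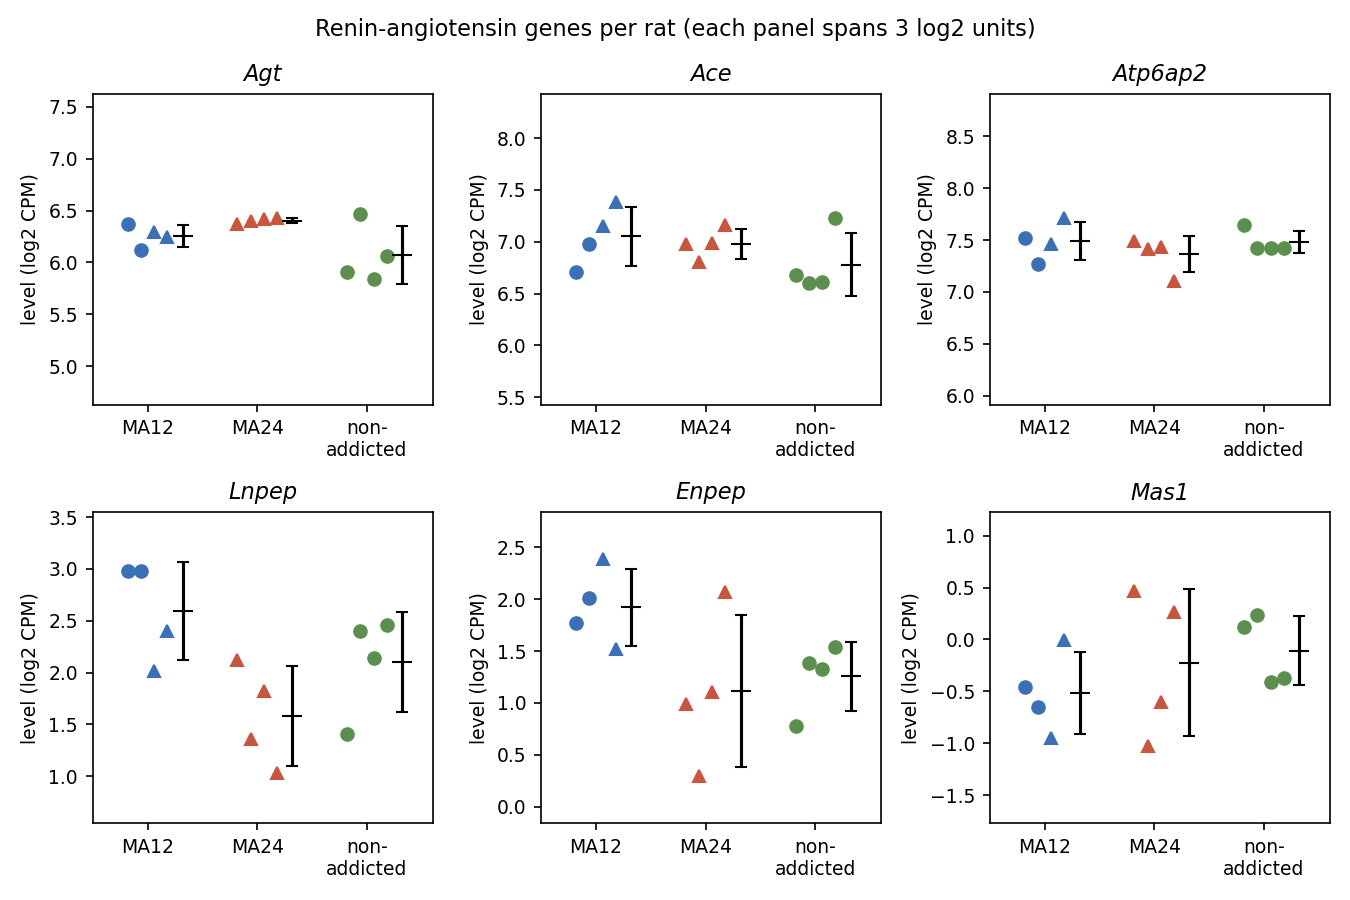
Level of 6 renin-angiotensin genes in each rat (y axis, log2 CPM, 3 log2 units in each panel) by group (x axis). Circles are rats whose number has no N, triangles are rats whose number ends in N, and the bar beside each group is the mean ± SD of its 4 rats. The *Agt* points of MA24 lie between 6.37 and 6.43, and the *Lnpep* points of MA12 split into 2.98 for both circles and 2.02 and 2.40 for the triangles.

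*Agt* encodes angiotensinogen, the precursor of all angiotensin peptides. Its level was 6.37, 6.12, 6.29 and 6.24 in MA12 rats 21, 31, 4N and 7N. In MA24 rats 9N, 14N, 15N and 16N it was 6.37, 6.40, 6.42 and 6.43. In non-addicted rats 9, 11, 12 and 13 it was 5.91, 6.46, 5.84 and 6.06. The 4 MA24 rats were therefore almost alike, and every one was above every MA12 rat, as for 6.77% of all genes tested, although MA24 rat 9N and MA12 rat 21 were all but equal. Non-addicted rat 11 was the highest of the 12 and the other 3 non-addicted rats were the lowest. The SD over the MA24 rats was 0.02, below the 0.03 that counting error alone gives for 1627 to 1922 counts, whereas it was 0.11 in MA12 and 0.28 in the non-addicted rats.

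The log2FC of *Agt* in MA24 vs. MA12 was 0.15 (95% interval -0.01 to 0.30, adjusted p = 0.248, edgeR). In non-addicted vs. MA24 it was -0.31 (-0.56 to -0.06, adjusted p = 0.198, edgeR), and -0.46 without non-addicted rat 11 (adjusted p = 0.173, edgeR). Against MA12, the non-addicted rats gave -0.18 (-0.43 to 0.08, adjusted p = 0.618, edgeR). This became -0.32 without non-addicted rat 11 (adjusted p = 0.265, edgeR), and -0.11 and -0.10 without non-addicted rats 9 and 12 (adjusted p = 0.826 and 0.849, edgeR). The order of the group means was thus MA24, MA12 and non-addicted, and no neighbours in it passed the test.

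The 11 astrocyte markers summed to 4433 to 6091 CPM in MA12, 5288 to 5959 in MA24 and 4794 to 5748 in the non-addicted rats. *Agt* came to 1.46% ± 0.27 of these marker counts in MA12, 1.51% ± 0.07 in MA24 and 1.31% ± 0.24 in the non-addicted rats (SD, n = 4 each). Relative to the summed markers, the log2 difference of MA24 from MA12 was 0.07 (exact permutation test, two-sided, p = 0.657, adjusted over 6 tests 0.657). This value rested on 1 rat and on the weight of the markers. MA12 rat 21 was at 1.86%, above every MA24 rat, and the other 3 MA12 rats were between 1.29% and 1.35%, below every MA24 rat. Without rat 21 the difference was 0.19 (exact permutation test, p = 0.0571, the smallest it can give for 3 rats against 4), and with each marker weighted equally it was 0.23 (exact permutation test, p = 0.143, adjusted 0.257). The differences of non-addicted from MA12 and MA24 rats were -0.15 (p = 0.429, adjusted 0.643) and -0.22 (p = 0.143, adjusted 0.4) in the same exact test. Without 1 rat they ran from -0.28 (without non-addicted rat 11) to -0.03 (without MA12 rat 21) and from -0.34 (without non-addicted rat 11) to -0.17, and with equal weights they were -0.10 and -0.32. The smallest p that this test can give for 4 rats against 4 is 0.0286 before adjustment. If only 1 of the 6 tests reached it, its adjusted p would still be above 0.05. A missed threshold here therefore does not show that the shares were equal. In bulk striatum, fewer cells of a type and less RNA per cell cannot be told apart.

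*Ace* encodes angiotensin-converting enzyme, which forms angiotensin II and also cuts other peptides. Its level was 6.71, 6.97, 7.15 and 7.38 in MA12 rats 21, 31, 4N and 7N. In MA24 rats 9N, 14N, 15N and 16N it was 6.98, 6.81, 6.99 and 7.16. In non-addicted rats 9, 11, 12 and 13 it was 6.68, 6.60, 6.61 and 7.23. The groups overlapped, and within MA12 both rats numbered with N were above both rats without. Non-addicted rat 13 stood well above the other 3 rats of its group.

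The log2FC of *Ace* was -0.08 in MA24 vs. MA12 (95% interval -0.35 to 0.18, adjusted p = 0.732, edgeR), -0.27 in non-addicted vs. MA12 (-0.61 to 0.06, adjusted p = 0.524) and -0.18 in non-addicted vs. MA24 (-0.46 to 0.10, adjusted p = 0.492). The value for MA24 vs. MA12 was 0.03 without MA12 rat 7N and -0.28 when only rats with N in their number were compared (adjusted p = 0.310, edgeR). Without non-addicted rat 13, the non-addicted rats were -0.43 from MA12 (adjusted p = 0.167, edgeR) and -0.36 from MA24 (adjusted p = 0.0696, edgeR). Among rats numbered without N, non-addicted vs. MA12 was -0.04 (adjusted p = 0.961, edgeR).

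Within MA12 and within the non-addicted rats, the order of the rats by *Ace* was that by the summed 12 markers of striatal projection neurons, but within MA24 it was not. The markers summed to 13950 and 14262 CPM in MA12 rats 21 and 31, and to 17100 and 17996 CPM in rats 4N and 7N. Among the non-addicted rats the sum was 16882 CPM in rat 13 and 13878 to 15646 CPM in the other 3. The sum in MA24 rats 9N, 14N, 15N and 16N was 17652, 17507, 16695 and 18438 CPM, where rat 16N was the highest in both, but rat 15N had the lowest sum and rat 14N the lowest *Ace*. As a share of these marker counts, *Ace* was 0.846% ± 0.076 in MA12, 0.722% ± 0.061 in MA24 and 0.732% ± 0.107 in the non-addicted rats (SD, n = 4 each), a description that was not tested. The share depended on the weight of the markers. Its log2 difference was -0.23 in MA24 vs. MA12, -0.22 in non-addicted vs. MA12 and 0.01 in non-addicted vs. MA24. With each marker weighted equally, these differences were -0.09, -0.19 and -0.10. The part of these neurons in the *Ace* values was not tested. Choroid plexus is another tissue rich in converting enzyme. Its 8 markers summed to 5.13 to 11.7 CPM in MA12, 5.75 to 8.23 in MA24 and 8.59 to 27.7 in the non-addicted rats. In non-addicted vs. MA24, 6 of 7 tested choroid plexus markers had a log2FC above 0 (median 1.20). Non-addicted rat 13, the highest of its group in *Ace*, was the lowest of that group in these markers. The part of choroid plexus in the *Ace* values was not tested.

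**Figure D2:**
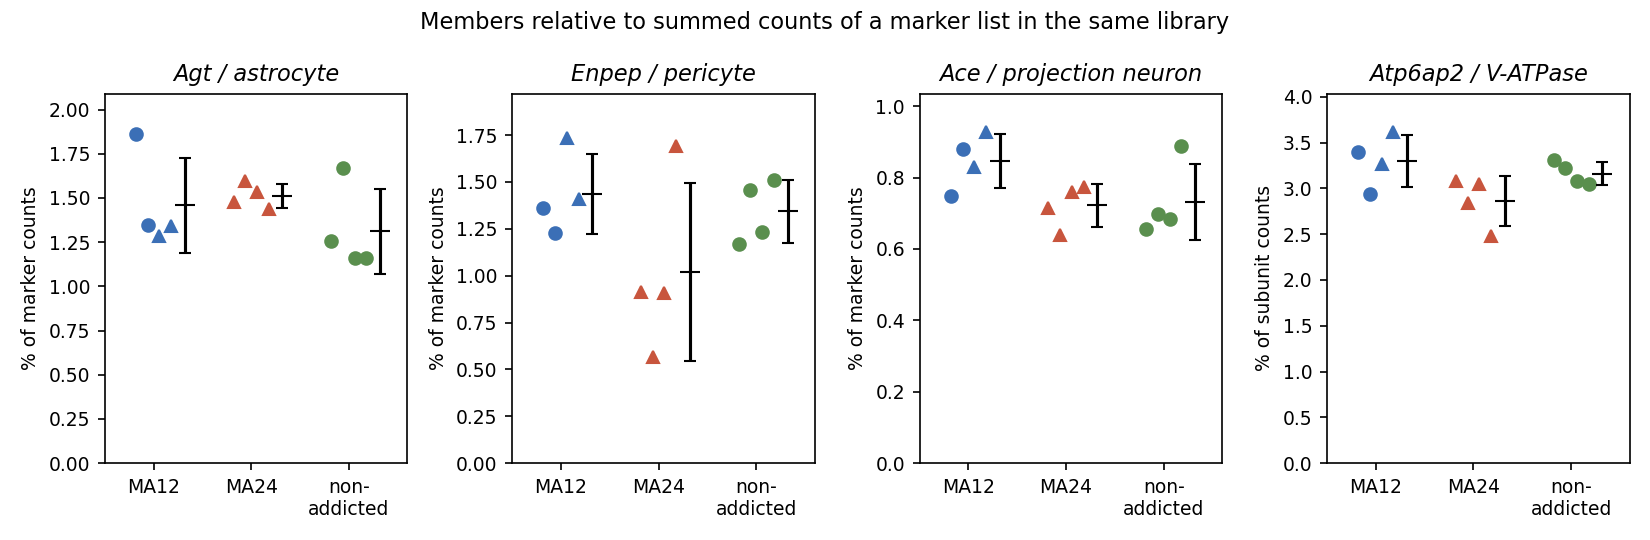
Share of a gene's counts relative to the summed counts of a list in the same library (y axis, percent, starting at 0) by group (x axis), for *Agt* over 11 astrocyte markers, *Enpep* over 8 pericyte markers, *Ace* over 12 striatal projection neuron markers and *Atp6ap2* over 15 V-ATPase genes. Symbols are as in the plot of levels, with the mean ± SD of 4 rats. *Enpep* in MA24 spreads from 0.568% to 1.69%, while *Agt* in MA24 has an SD of only 0.07 percentage points around 1.51%.

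*Enpep* encodes aminopeptidase A, which turns angiotensin II into angiotensin III and is known in brain from the pericytes around capillaries. Its level was 1.77, 2.01, 2.38 and 1.52 in MA12 rats 21, 31, 4N and 7N. In MA24 rats 9N, 14N, 15N and 16N it was 0.99, 0.30, 1.10 and 2.07. In non-addicted rats 9, 11, 12 and 13 it was 0.77, 1.38, 1.33 and 1.54. Apart from rat 16N, all MA24 rats were below all MA12 rats, and of the non-addicted rats only rat 13 reached the lowest MA12 rat. These levels rest on 23 to 109 counts per rat.

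The log2FC of *Enpep* was -0.72 in MA24 vs. MA12 (95% interval -1.49 to 0.04, adjusted p = 0.244, edgeR), and -1.16 without MA24 rat 16N (adjusted p = 0.102, edgeR). For non-addicted vs. MA12 it was -0.70 (-1.29 to -0.11, adjusted p = 0.323, edgeR). In non-addicted vs. MA24 it was 0.03 (-0.76 to 0.83, adjusted p = 0.976, edgeR), an interval that spans an FC of 1.5 in both directions.

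Pericyte markers were compared between the same groups. In MA24 vs. MA12, 6 of 8 were lower. *Rgs5* (log2FC -0.72, adjusted p = 0.0374, edgeR) and *Abcc9* (-0.73, adjusted p = 0.0450) were DEGs, against 1.54% of all genes. However, the rats of the groups overlapped in both genes. Neither was a DEG without MA12 rat 21 or with N or no N as a covariate, where 0 genes were (edgeR). All 8 pericyte markers had a log2FC below 0 in non-addicted vs. MA12, with a median of -0.63 and 0 DEGs (edgeR). Of them, 6 had an unadjusted p below 0.05 (12% of all genes). The summed level was 196 to 319 CPM in MA12, 200 to 244 in MA24 and 138 to 196 in the non-addicted rats. Endothelial markers were also lower in all 9 genes in non-addicted vs. MA12 (median -0.43, 0 DEGs by edgeR, 6 at an unadjusted p below 0.05). All 6 oligodendrocyte and all 5 tested fibroblast markers were below 0 there too. By contrast, all 5 ependymal and 5 of 7 choroid plexus markers were above 0. *Enpep* came to 1.43% ± 0.21 of the pericyte marker counts in MA12, 1.02% ± 0.47 in MA24 and 1.34% ± 0.17 in the non-addicted rats (SD, n = 4 each). Relative to these markers, the log2 difference of the non-addicted from the MA12 rats was -0.09 (exact permutation test, two-sided, p = 0.6, adjusted over the same 6 tests 0.657). That of MA24 from MA12 was -0.59 (exact permutation test, p = 0.114, adjusted 0.4) and that of non-addicted from MA24 was 0.50 (p = 0.2, adjusted 0.4). Both depended on single MA24 rats, with -0.87 and 0.78 without rat 16N (exact permutation test, p = 0.0571 each, the smallest for 3 rats against 4) and -0.35 and 0.26 without rat 14N.

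*Lnpep* encodes insulin-regulated aminopeptidase, a membrane enzyme that degrades oxytocin and vasopressin and binds angiotensin IV. Its level was 2.98, 2.98, 2.02 and 2.40 in MA12 rats 21, 31, 4N and 7N. In MA24 rats 9N, 14N, 15N and 16N it was 2.12, 1.36, 1.82 and 1.03. In non-addicted rats 9, 11, 12 and 13 it was 1.40, 2.40, 2.14 and 2.46. The highest levels were thus those of the 2 MA12 rats whose number has no N, while MA12 rat 4N lay below MA24 rat 9N. The levels rest on 37 to 186 counts per rat.

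*Lnpep* had the lowest log2FC of the members in MA24 vs. MA12, at -1.02 (SE 0.29, 95% interval -1.65 to -0.40), and missed the threshold (adjusted p = 0.0628, edgeR). Its log2FC in non-addicted vs. MA12 was -0.51 (-1.11 to 0.09, adjusted p = 0.504, edgeR) and in non-addicted vs. MA24 it was 0.52 (-0.12 to 1.17, adjusted p = 0.379). The order of the group means was MA12 at 2.59 ± 0.47, non-addicted at 2.10 ± 0.48 and MA24 at 1.58 ± 0.48 (SD, n = 4 each), with about 1 SD between neighbours. Neither pair of neighbours passed the test.

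Whether *Lnpep* counted as a DEG in MA24 vs. MA12 depended on the method and on the rats used. DESeq2 (adjusted p = 0.0124), edgeR's likelihood ratio test (0.0163) and the removal of the 15% of genes with the lowest variance (0.0407, edgeR quasi-likelihood) each made it a DEG at the same log2FC of -1.02. So did leaving out MA24 rat 9N (log2FC -1.24, adjusted p = 0.0364, edgeR). The variance filter with genes ranked without TMM did not (log2FC -0.99, adjusted p = 0.0562, edgeR). When only rats with N in their number were used, 2 MA12 and 4 MA24 rats, the log2FC was -0.58 (adjusted p = 0.480, edgeR). A fit with N or no N as a covariate also gave -0.58 (adjusted p = 0.405, edgeR). The log2FC was below 0 in all 19 alternatives, from -1.24 to -0.58. The same covariate gave -0.84 in non-addicted vs. MA12 (adjusted p = 0.321, edgeR).

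**Figure D3:**
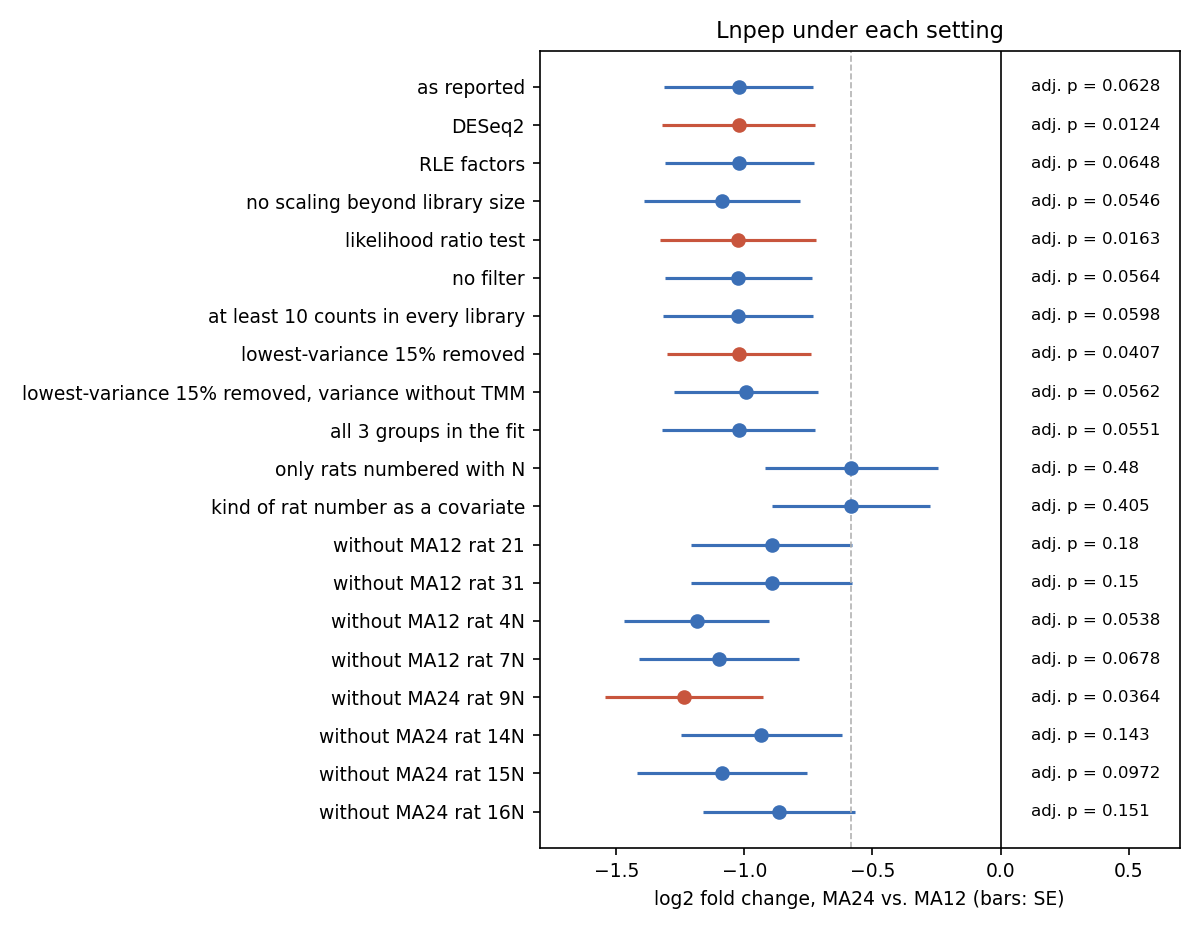
Log2FC of *Lnpep* in MA24 vs. MA12 (x axis) under each setting (y axis), as points with the SE as bars and the adjusted p at the right. Red points are settings in which it was a DEG, and the dashed line marks an FC of 1.5. All points lie below 0, between -1.24 and -0.58, and the 2 that take up the kind of rat number are nearest to 0.

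*Atp6ap2* encodes an accessory protein of the vacuolar proton pump (V-ATPase) that is also counted among the receptors of the renin-angiotensin system. Its level was 7.52, 7.27, 7.46 and 7.72 in MA12 rats 21, 31, 4N and 7N. In MA24 rats 9N, 14N, 15N and 16N it was 7.49, 7.41, 7.44 and 7.11. In non-addicted rats 9, 11, 12 and 13 it was 7.64, 7.42, 7.43 and 7.43. The groups overlapped throughout, with rat 16N the lowest of all. The log2FC was -0.13 in MA24 vs. MA12 (95% interval -0.35 to 0.09, adjusted p = 0.485, edgeR), -0.02 in non-addicted vs. MA12 (-0.23 to 0.18, adjusted p = 0.951) and 0.11 in non-addicted vs. MA24 (-0.08 to 0.31, adjusted p = 0.535). All 3 intervals lie within an FC of 1.5 in either direction.

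The pump itself was described by 15 other V-ATPase genes. Of these, 11, 12 and 8 had a log2FC above 0 in MA24 vs. MA12, non-addicted vs. MA12 and non-addicted vs. MA24, with 0 DEGs in each (edgeR) and 2, 0 and 2 of the 15 at an unadjusted p below 0.05, where 22.9%, 12% and 17.6% of all genes were. Their median log2FC was 0.10, 0.06 and 0.00. *Atp6ap2* came to 3.30% ± 0.28 of the V-ATPase counts in MA12, 2.86% ± 0.28 in MA24 and 3.16% ± 0.12 in the non-addicted rats (SD, n = 4 each), again without a test.

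The angiotensin receptors were hardly detected. *Agtr1b*, which encodes one of the 2 forms of the AT1 receptor in rats, had 0 counts in all 12 libraries, which allows up to 0.126 to 0.168 CPM per library (3 counts, for counting error only). *Agtr1a*, the other form, had 0, 1, 5 and 2 counts in non-addicted rats 9, 11, 12 and 13, 5, 2, 1 and 0 in MA12 rats 21, 31, 4N and 7N, and 1, 2, 0 and 0 in MA24 rats 9N, 14N, 15N and 16N. *Agtr2*, the AT2 receptor, had at most 4 counts, in non-addicted rat 9 and MA12 rat 21, and 0 in 6 of the 12 libraries. With so few reads no difference between groups was detectable at this depth, and the 3 genes did not enter the tests. *Agtr1a* and *Agtr1b* are close copies of each other. How the counting treated reads with several positions is not given in the sources used here, so their counts are uncertain.

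*Mas1* encodes a receptor for angiotensin-(1-7). It had 15, 13, 9 and 16 counts in MA12 rats 21, 31, 4N and 7N, 30, 8, 11 and 21 in MA24 rats 9N, 14N, 15N and 16N, and 19, 22, 16 and 13 in non-addicted rats 9, 11, 12 and 13. Its level was -0.51 ± 0.40 in MA12, -0.22 ± 0.71 in MA24 and -0.11 ± 0.33 in the non-addicted rats (log2 CPM, SD, n = 4 each). The groups overlapped. Counting error alone gives an SD of 0.40 in MA12, 0.38 in MA24 and 0.35 in the non-addicted rats, computed on raw counts. This is near the spread seen in MA12 and the non-addicted rats and below that seen in MA24. The log2FC was 0.44 in MA24 vs. MA12 (95% interval -0.64 to 1.52, adjusted p = 0.647, edgeR), 0.44 in non-addicted vs. MA12 (-0.49 to 1.38, adjusted p = 0.754) and 0.01 in non-addicted vs. MA24 (-1.01 to 1.03, adjusted p = 0.993). Each of these intervals reaches past an FC of 1.5 in at least 1 direction.

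**Figure D4:**
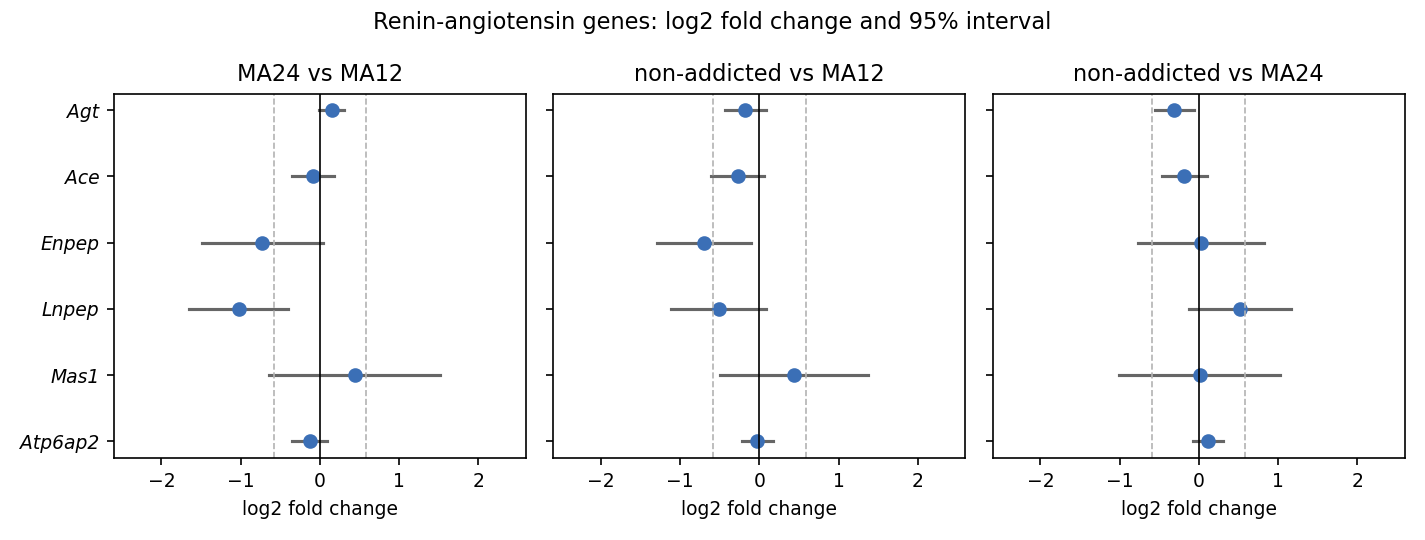
Log2FC of the 6 tested members in the 3 comparisons (x axis, log2 scale), as points with 95% intervals from edgeR's quasi-likelihood fit. Dashed lines mark an FC of 1.5. The intervals of *Lnpep* in MA24 vs. MA12 (-1.65 to -0.40), *Enpep* in non-addicted vs. MA12 (-1.29 to -0.11) and *Agt* in non-addicted vs. MA24 (-0.56 to -0.06) leave out 0 before adjustment.

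The stretch before the RefSeq start was available for 8 of the 9 members, on the GRCr8 build rather than the rn6 build of the counts. The 250 bases before the start are shown for *Agtr1a* (chr17:34435433-34435682, minus strand) and *Agtr1b* (chr2:104849263-104849512, minus strand), because this pair of related receptor genes differs there while neither yielded more than 5 counts. Capitals mark matches to a TATA motif (TATAAA, on the strand of the gene), a GC box (GGGCGG, either strand) or CCAAT (either strand).
Agtr1a: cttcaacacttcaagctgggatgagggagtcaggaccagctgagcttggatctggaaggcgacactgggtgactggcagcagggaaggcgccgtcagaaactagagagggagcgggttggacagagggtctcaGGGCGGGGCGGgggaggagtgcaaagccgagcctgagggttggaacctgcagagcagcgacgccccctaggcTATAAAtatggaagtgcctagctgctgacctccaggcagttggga
Agtr1b: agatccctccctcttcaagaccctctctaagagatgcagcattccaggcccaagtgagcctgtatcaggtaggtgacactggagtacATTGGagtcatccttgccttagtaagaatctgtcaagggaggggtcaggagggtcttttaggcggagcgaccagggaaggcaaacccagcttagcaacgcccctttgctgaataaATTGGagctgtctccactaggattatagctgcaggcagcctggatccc
*Agtr1a* holds 1 TATA match, whose first base is 45 bases before the start, and 2 GC boxes that share 1 base. *Agtr1b* holds neither and has 2 CCAAT matches, both read as ATTGG. Of 33469 RefSeq windows of this length, 8.06% held the TATA match, 30.5% a GC box and 34% CCAAT. The GC content was 60.8% in *Agtr1a* and 52.8% in *Agtr1b*, against a median of 51.2%. The windows of *Lnpep*, *Ace* and *Atp6ap2* held 29, 23 and 18 CpG dinucleotides, and those of *Agtr1a*, *Enpep*, *Agtr1b*, *Mas1* and *Agtr2* held 9, 7, 3, 3 and 2, with a median of 5 over all windows. These are letters in a window, and no measurement here bears on binding or use of these starts.

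Other genes that make, cut or carry angiotensin peptides were counted as a list of 16. *Cma1*, *Cpa3*, *Ctsg* and *Mrgprd*, which encode mast cell and neutrophil proteases and an angiotensin-related receptor, had 0 counts in all libraries, and the kallikrein *Klk1* had 1 count in 1 library. The remaining 11 were tested. Of these, 10 had a log2FC above 0 in MA24 vs. MA12, 7 in non-addicted vs. MA12 and 3 in non-addicted vs. MA24, with 0 DEGs in each (edgeR) and 2 of the 11 in each at an unadjusted p below 0.05, where 22.9%, 12% and 17.6% of all genes were. Their median log2FC was 0.09, 0.04 and -0.04. The peptidases *Mme*, *Nln*, *Prep*, *Dpp3* and *Prcp*, the protease *Ctsd* and the AT1 receptor-associated protein *Agtrap* were well counted, with at least 146 counts in every rat, and each had an unadjusted p above 0.05 in all 3 comparisons.

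*Ctsa*, which encodes cathepsin A, a lysosomal carboxypeptidase, had an adjusted p below 0.05 in MA24 vs. MA12, as did 4.17% of all genes. Its level was 7.16, 7.23, 7.37 and 7.35 in MA12 rats 21, 31, 4N and 7N. In MA24 rats 9N, 14N, 15N and 16N it was 7.57, 7.74, 7.64 and 7.61. In non-addicted rats 9, 11, 12 and 13 it was 7.50, 7.39, 7.37 and 7.55. All 12 rats therefore fell in the order MA12, non-addicted and MA24 with no overlap between groups, as for 6.77%, 3.38% and 4.49% of all genes in the direction of *Ctsa* in MA24 vs. MA12, non-addicted vs. MA12 and non-addicted vs. MA24, although MA12 rat 4N and non-addicted rat 12 were nearly equal. The log2FC was 0.36 in MA24 vs. MA12 (95% interval 0.21 to 0.52, adjusted p = 0.0243, edgeR), an FC of 1.29 and so not a DEG. It was 0.17 in non-addicted vs. MA12 (adjusted p = 0.373, edgeR) and -0.18 in non-addicted vs. MA24 (adjusted p = 0.207, edgeR). The adjusted p in MA24 vs. MA12 rose above 0.05 without MA12 rat 21 (0.0879), MA12 rat 31 (0.0664), MA24 rat 14N (0.0514), MA24 rat 15N (0.0548) or MA24 rat 16N (0.0605), with the log2FC between 0.32 and 0.37. Within the rats that have N the log2FC was 0.29 (adjusted p = 0.213, edgeR).

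*Anpep*, which encodes aminopeptidase N, was lower in every non-addicted rat (1.51 to 1.65) than in every MA24 rat (1.82 to 2.96), as in 4.49% of all genes tested. Its log2FC there was -0.71 (95% interval -1.30 to -0.13, adjusted p = 0.204, edgeR), and -0.38 without MA24 rat 16N, the highest of its group (adjusted p = 0.482, edgeR). All 8 pericyte and all 9 endothelial markers also had a log2FC below 0 in this comparison, with medians of -0.41 and -0.33. So did all 6 oligodendrocyte markers (median -0.35), all 6 microglia markers (-0.15) and all 5 tested fibroblast markers (-0.36). Most choroid plexus and ependymal markers went the other way, with 6 of 7 and 4 of 5 above 0. The part of these cell types was not tested. *Thop1*, a peptidase that can form angiotensin-(1-7), had a log2FC of 0.22 in MA24 vs. MA12 (adjusted p = 0.146, edgeR), and *Rnpep*, aminopeptidase B, one of 0.17 in non-addicted vs. MA12 (adjusted p = 0.362, edgeR).

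**Figure D5:**
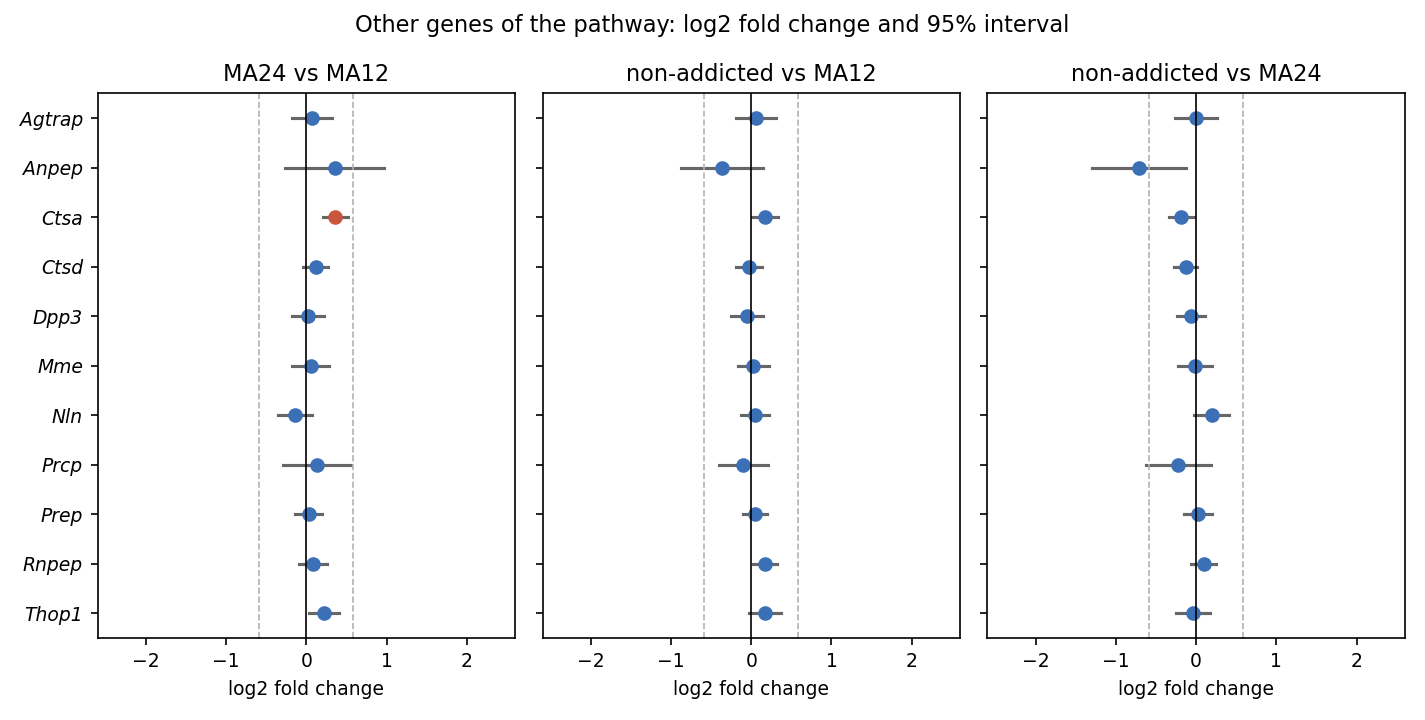
Log2FC (x axis, log2 scale) of 11 other tested genes of the pathway in the 3 comparisons, with 95% intervals from edgeR's quasi-likelihood fit and dashed lines at an FC of 1.5. Red marks an adjusted p below 0.05, which *Ctsa* alone reached, in MA24 vs. MA12. The interval of *Anpep* is the widest in each panel.

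Genes that carry the signal of the AT1 receptor inside the cell, and of many other receptors, were counted as a list of 20. In MA24 vs. MA12, 16 of the 20 had a log2FC below 0, with a median of -0.21, and 4 had an adjusted p below 0.05, as did 4.17% of all genes. *Prkca*, which encodes protein kinase C alpha, was the 1 DEG, against 1.54% of all genes (log2FC -0.78, SE 0.18, adjusted p = 0.0348, edgeR). *Prkcb* (-0.32, adjusted p = 0.0313), *Plcb1* (-0.40, adjusted p = 0.0378) and *Plcb4* (-0.40, adjusted p = 0.0450), which encode another protein kinase C and phospholipases C, fell by less than an FC of 1.5 (edgeR). As many, 16 of 20, were also below 0 in non-addicted vs. MA12 (median -0.16), with 0 DEGs by edgeR and 6 at an unadjusted p below 0.05 (12% of all genes). In non-addicted vs. MA24, 7 of 20 were below 0 (median 0.06), with 0 DEGs by edgeR and 3 at an unadjusted p below 0.05 (17.6% of all genes). Since no gene at all was a DEG in MA24 vs. MA12 without MA12 rat 21, or with N or no N as a covariate, *Prkca* was not one either.

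The members differed in how much rats of one group varied. Among the 10765 genes with a mean count of at least 50, the median SD within groups was 0.16 on the log2 scale. *Lnpep* (0.48) and *Enpep* (0.51) varied more than 96.5% and 97.2% of these genes, *Ace* (0.25) more than 78.3%, and *Agt* (0.17) and *Atp6ap2* (0.16) more than 57.1% and 51.0%. Counting error gives 0.13 to 0.19 for *Lnpep* and 0.16 to 0.23 for *Enpep*, below the spread seen. Among these 5 members, Pearson's r of the levels over the 12 libraries lay between -0.36 (*Enpep* and *Atp6ap2*) and 0.41 (*Ace* and *Enpep*), so they did not vary as one set.

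The genes most like each member over the 12 libraries were found by Pearson's r of log2 CPM. For *Lnpep* they were *Tnrc6b* (0.95), *Polr3b* (0.94) and *Taok1* (0.94). For *Ace* they were *Scn4b* (0.93), *Fndc5* (0.90) and *Lonp1* (0.90), and for *Enpep* they were *Elfn1* (0.93), *Ppp2r2c* (0.92) and *Tns1* (0.92). For *Atp6ap2* they were *Ccdc47* (0.93), *Rbfox1* (0.89) and *Ppp3cb* (0.88), and for *Agt* they were *Pnpla7* (0.90), *Sepw1* (0.87) and *Ptafr* (0.86). These are the highest of 10765 values each, over libraries that share groups and composition, and are given as a description.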

How the data were processed

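Poly-A RNA libraries (TruSeq v2, a kit that does not mark strand) from the striatum of 12 rats were analysed. Per the labels' processing notes and the study's methods, the authors used cutadapt 1.18 for trimming and STAR 2.7.0e for alignment to rn6, and deposited raw counts per gene (featureCounts, with HTSeq 0.12.4 also listed), without normalization. The strand and multi-mapping settings are not given in the sources used here.

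Counts were tested with edgeR 4.0.16 (limma 3.58.1, R 4.3.3), TMM, and only the 2 compared groups in the fit, for genes with a mean count above 4. The filter on the 15% lowest variance that the study names was an alternative, because it uses the measured spread and can remove members that vary little. It removed *Agt* in MA24 vs. MA12 but not in the other comparisons. Exact tests and figures used Python 3.11.15, numpy 2.4.6, scipy 1.17.1, pandas 2.3.3 and matplotlib 3.10.9. Alternatives included DESeq2 1.42.0, other scalings, filters and tests, each rat left out, and the kind of rat number. The fit was tested on simulated data. Groups came from the labels, and all 12 columns were used. All 9 members were named, with genes of related lists by count or where they passed a p of 0.05. The members and lists were chosen with earlier results of these data known. The unscaled variance filter, the *Ace* and *Atp6ap2* shares and the start regions were added after the data were seen. Each rat is a separate animal. Floors of counts cover counting error only. Intervals of log2FC come from edgeR's quasi-likelihood fit, which also takes in the spread between rats of a group. All samples carry 1 batch label, and length of abstinence and time of day cannot be told apart. Some genes of the pathway are not reported here.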

Additional observations from a re-analysis of the deposited data

Results flagged for a closer look

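In 24 sets of 4 rats (the levels of 6 genes and 2 marker shares in 3 groups), 1 rat stood apart from the other 3 in 3 sets, where chance alone gives about 1.2. The measure is the gap between the outlying rat and its nearest neighbour divided by the range of the group, set against its 95% critical value. For the *Atp6ap2* level in the non-addicted rats it was 0.986, with rat 9 at 7.64 and the other 3 between 7.42 and 7.43. For the *Ace* level in the non-addicted rats it was 0.869, with rat 13 at 7.23 and the others between 6.60 and 6.68. For the share of *Agt* in the astrocyte marker counts of MA12 it was 0.874, with rat 21 at 1.86% and the others between 1.29% and 1.35%.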

How the results depend on the processing

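Of the values recomputed under the alternatives, 642 stayed the same, 4 became DEGs, 39 counts moved by over 1.5 times or to or from 0, and 19 reversed. The same means an unchanged direction and side of the threshold, or, for counts of DEGs, an equal count or one within 1.5 times. Marker shares tested without 1 rat could not change side, since their exact p cannot fall below 0.0571. The 642 therefore overstates how much was put to a test. In MA24 vs. MA12 the number of DEGs was 333 with DESeq2 and 373 with the likelihood ratio test. It was 0 (edgeR) among rats numbered with N (1728 genes at an unadjusted p below 0.05) and 0 with N or no N as a covariate (1893 genes), and 0 to 342 when 1 rat was left out. Members that were DEGs numbered 1 with DESeq2, the likelihood ratio test and the variance filter, and 0 to 1 when 1 rat was left out. This was *Lnpep* each time, at -1.02 in the first 3 of these and at -1.24 without MA24 rat 9N. Without any other single rat *Lnpep* was not a DEG. Its log2FC over all fits without 1 rat lay between -1.24 and -0.86. *Ace* ranged from -0.191 to 0.0308 without 1 rat. In non-addicted vs. MA12 there were 79 DEGs with DESeq2, 93 in the likelihood ratio fit, 12 with all genes kept, 26 with the variance filter, 11 with its unscaled form, 12 with all 3 groups in the fit, 1 among rats without N, 0 with the covariate (edgeR, 1241 genes at an unadjusted p below 0.05) and 0 to 38 without 1 rat. *Atp6ap2* reversed to 0.0877 among rats without N and 0.0753 with the covariate, and ranged from -0.094 to 0.0539 without 1 rat. *Enpep* per pericyte marker count ranged from -0.16 to 0.0025 without 1 rat. In non-addicted vs. MA24 there were 151 DEGs with DESeq2, 1 without scaling, 166 in the likelihood ratio fit, 10 with all genes kept, 49 with the variance filter, 16 with its unscaled form and 0 to 104 without 1 rat. *Thop1* reversed to 0.0038 without scaling and ranged from -0.101 to 0.0336 without 1 rat. *Mas1* reversed to -0.0138 with the unscaled variance filter and ranged from -0.22 to 0.31 without 1 rat, and *Enpep* ranged from -0.20 to 0.47. The cause of these shifts was not tested. *Mas1* could not be tested with at least 10 counts in every library, nor *Agt* in MA24 vs. MA12 with the variance filters. No paired analysis was possible because the groups share no rat numbers.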
